A study of Mus musculus with 23 samples.

Results

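The keratin genes of the mouse were followed across tongue and longissimus dorsi muscle of mice that had flown in space or stayed on the ground. Members were all probe sets of the array whose platform annotation names exactly 1 gene and whose symbol starts with Krt followed by a number. The rule found 49 probe sets for 40 genes, out of 22626 probe sets on the array and 20380 that name 1 gene. Of these genes, 34 had 1 probe set and 6 had more (Krt6a, Krt8, Krt12, Krt13, Krt14 and Krt17). By RefSeq, 19 of the genes lie on chromosome 11, which holds the type I keratins, and 21 on chromosome 15, which holds the type II keratins and the type I keratin Krt18.

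All arrays came from adult male C57BL/N6 mice and were made from total RNA of a whole frozen muscle sample. BF mice (Bion Flown) spent 30 days in microgravity aboard the Bion M1 satellite, and their tissue was taken within a day of landing. FC mice (Flight Control) were kept over the same time in an ordinary animal facility. BG mice (Bion Ground) were kept for 30 days on the ground in a copy of the flight habitat, so that BF and BG share the habitat and FC and BG share normal gravity. Tongue was measured on 3 BF, 2 FC and 3 BG arrays, and longissimus dorsi, a muscle along the spine, on 5 arrays of each group. It is not given in the sources used here if a mouse gave both muscles, nor if the lining of the tongue was removed.

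Keratins are the intermediate filament proteins of epithelial cells, and each filament pairs a type I with a type II keratin. Basal cells of stratified epithelium carry KRT5 with KRT14 and KRT15, cells above them exchange these for KRT1 with KRT10 in epidermis or KRT4 with KRT13 in mucosa, and injured or fast renewing epithelium adds KRT6, KRT16 and KRT17. Hard keratins build hair and nail, and in the mouse tongue they also stiffen the backward pointing filiform papillae, while KRT8 with KRT18 belongs to simple epithelium. In muscle fibres the main filament protein is desmin, with small amounts of KRT8 and KRT19 at the membrane.

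The hard keratin genes lie side by side in the genome, and neighbours of the chromosome 11 row differed in tongue between FC and BG mice. Krt34, Krt31 and Krt32 follow each other there. The first 2 were higher and Krt32 was lower in FC than in BG tongue. These calls rest on 2 FC arrays, and those of Krt34 and Krt32 were lost when any BG tongue array was left out. Krt31 and Krt34 are close relatives whose probe sets may share signal. Krt84, a hard keratin of chromosome 15, was also higher. The 250 bases before the start of Krt31, Krt34, Krt32 and Krt84 are shown so that their proximal promoters can be compared. All 4 genes lie on the minus strand of build GRCm38.p6, and the sequences, from RefSeq, run in the direction of the gene. Capitals mark the TATA box TATAAA, the hair keratin motif HK-1 (CTTTGAAGA) and CTTTGA, the core of sites bound by the hair factor LEF1, which is also part of HK-1. Both strands were searched.
Krt31, chr11:100050552-100050801: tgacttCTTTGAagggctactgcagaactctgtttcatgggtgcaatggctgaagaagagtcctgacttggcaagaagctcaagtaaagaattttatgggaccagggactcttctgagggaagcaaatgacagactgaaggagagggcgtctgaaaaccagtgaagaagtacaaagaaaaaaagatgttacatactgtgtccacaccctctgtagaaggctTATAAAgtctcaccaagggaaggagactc
Krt34, chr11:100041555-100041804: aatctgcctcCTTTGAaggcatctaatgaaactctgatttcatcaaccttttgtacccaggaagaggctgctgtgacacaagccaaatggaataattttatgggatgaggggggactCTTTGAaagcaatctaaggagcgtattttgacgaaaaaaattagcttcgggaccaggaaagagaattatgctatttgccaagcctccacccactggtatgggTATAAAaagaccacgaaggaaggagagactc
Krt32, chr11:100088270-100088519: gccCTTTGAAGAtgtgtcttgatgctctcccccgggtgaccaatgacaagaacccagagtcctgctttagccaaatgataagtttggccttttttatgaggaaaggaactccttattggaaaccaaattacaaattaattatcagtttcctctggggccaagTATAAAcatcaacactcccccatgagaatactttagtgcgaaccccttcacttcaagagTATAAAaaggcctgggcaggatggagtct
Krt84, chr15:101532821-101533070: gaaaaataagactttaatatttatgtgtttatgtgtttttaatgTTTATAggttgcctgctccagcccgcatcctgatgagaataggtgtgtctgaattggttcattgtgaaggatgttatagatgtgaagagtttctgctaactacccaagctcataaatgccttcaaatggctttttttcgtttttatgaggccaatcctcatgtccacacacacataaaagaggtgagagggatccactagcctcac
In Krt31 and Krt32 the first base of a TATA box stands 29 bases before the start, and in Krt34 it stands 31 bases before it. Krt32 has a further TATA box that begins 88 bases before the start and is the only 1 of the 25 keratin genes with such a sequence that holds HK-1. In Krt84 the 1 match to TATAAA is on the opposite strand and begins 206 bases before the start. Of the 32851 promoter windows of this length, 12.4% hold TATAAA, 0.414% hold HK-1 and 13.8% hold CTTTGA, and among the 25 keratin genes these motifs were found in 12, 1 and 5. A match is a string of letters, not a shown binding site.

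Values are log2 RMA values, so that a difference of 1 is a 2-fold difference. They were compared in 1 linear model over all 23 arrays (limma), and a probe set passed where its limma p, after Benjamini-Hochberg adjustment across the 22626 probe sets, was under 0.05. Arrays are numbered samples of a group, and a p measures the spread between arrays within groups, pooled over the 6 groups. Of the 23 arrays 15 are of longissimus dorsi, so a tongue p rests largely on the spread in that muscle. A probe set's value also depends on its probes, so values are set between arrays and not between genes.

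The labelled tissues were checked against markers. The 25 probe sets of skeletal muscle fibre markers had a mean value between 11.05 and 11.79 on the tongue arrays and between 12.39 and 12.62 on the longissimus dorsi arrays, and 23 of them were lower in tongue. The 29 probe sets of epithelium markers other than keratins (Epcam, Cdh1, Trp63 and others) had a mean between 8.37 and 8.72 in tongue and between 4.56 and 4.77 in longissimus dorsi, and 25 were higher and 0 lower in tongue. Of 16 probe sets of salivary gland and taste bud markers, 0 were higher and 8 were lower in tongue. Over all probe sets 24.5% were higher and 45.3% lower in tongue, so the 8 of 16 lower are near that share. Array medians lay between 6.42 and 6.61, and each array correlated with the others of its group at a mean r between 0.979 and 0.996.

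One tongue array stood apart in keratins. On BG array 1, 29 probe sets of the whole table were more than 1 log2 unit above every other tongue array, and 6 of these were keratins and 11 were keratin associated proteins of the hair shaft, of 31 such probe sets on the array. The other tongue arrays had between 0 and 41 such probe sets, of which 0 were keratins. Krt1, the main suprabasal keratin of skin, read 9.65 there and at most 7.16 on the other tongue arrays. Krt2, a keratin of the upper epidermis, read 6.59 there and at most 3.61 elsewhere. The inner root sheath keratins Krt71, Krt25 and Krt27 read 7.64, 5.84 and 4.98 there and at most 5.80, 3.44 and 3.76 elsewhere. Krt79, known from the opening of the hair follicle, read 8.41 there and at most 7.33 elsewhere. The group means of these 6 genes in BG tongue rest on this array, and the housing differences of these genes in tongue are also given without it. In longissimus dorsi BG array 5 and BF array 1 stood apart from all other arrays of that muscle in 107 and 26 probe sets, of which 0 were keratins.

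**Figure D1:**
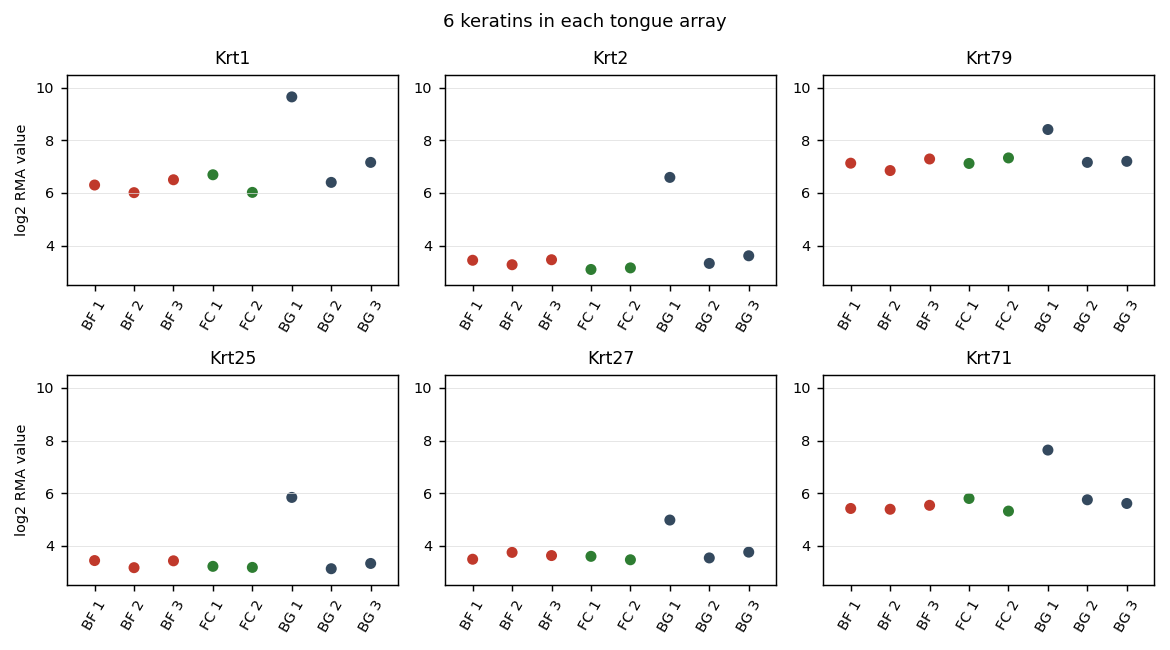
Log2 RMA values of Krt1, Krt2, Krt79, Krt25, Krt27 and Krt71 on each of the 8 tongue arrays (x axis: group and array number; y axis: log2 RMA value; 1 point per array). BG 1 is the highest array in each of the 6 panels, from 4.98 for Krt27 to 9.65 for Krt1.

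Tongue against longissimus dorsi: the muscles were compared to see which keratins the tongue samples carry at all. Over the mean of the 3 housings, 36 of the 49 keratin probe sets passed, 33 higher and 3 lower in tongue. Over all genes, 24.5% of probe sets were higher and 45.3% lower in tongue. The median keratin difference was 4.35, against -0.142 over all probe sets. In longissimus dorsi 42 of the 49 probe sets lay below the median of every array, and without detection calls signal and background cannot be told apart there, so a positive difference may understate the true one and the sizes give no order among genes. The count was 31 within BF, 32 within FC and 34 within BG, where 45.8%, 46.8% and 54.1% of all probe sets passed.

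The basal keratins were all higher in tongue, in 5 of 5 probe sets. Krt14 (1423935_x_at) averaged 12.24 ± 0.178 in BF, 12.55 ± 0.0335 in FC and 12.46 ± 0.139 in BG tongue, and 4.88 ± 0.164, 4.73 ± 0.237 and 5.00 ± 0.159 in longissimus dorsi of the same groups (SD, n = 3, 2 and 3 in tongue, 5 each in longissimus dorsi). The difference was 7.55 ± 0.079 (SE, limma adjusted p = 1.95e-27). The other Krt14 probe sets differed by 6.24 and 1.94, Krt15 by 5.94 and Krt5 by 5.49. All 5 thus showed the same direction, with sizes that differ even within Krt14.

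The mucosal pair Krt13 and Krt4 was higher in tongue with all 3 probe sets. Krt13 (1422454_at) differed by 10.13 ± 0.0797, and its other probe set by 8.12 ± 0.0872. Krt4 differed by 8.60 ± 0.0852 and averaged 14.20 ± 0.113 in BF, 14.37 ± 0.033 in FC and 14.20 ± 0.0529 in BG tongue. The 2 probe sets of Krt12, the keratin of the cornea, differed by 0.08 and 0.03 and did not pass (limma adjusted p = 0.257 and 0.735).

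Of the cornifying suprabasal keratins, Krt10 was higher in tongue by 5.85 ± 0.0703, Krt80 by 4.76 ± 0.0895 and Krt1 by 1.96 ± 0.24. Krt2 and Krt77 did not pass, at 0.19 and -0.14. On the 7 tongue arrays other than BG 1, Krt1 lay between 6.01 and 7.16, and on the longissimus dorsi arrays between 4.56 and 5.08, so these did not overlap either.

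All 7 probe sets of the stress keratins were higher in tongue. Krt6b differed by 8.71 ± 0.0932, the Krt6a probe sets by 8.50, 6.56 and 5.93, and Krt16 by 7.47 ± 0.0793. Krt6a and Krt6b are near copies, so their probe sets may share signal. Krt17 differed by 5.08 ± 0.0865 with 1 probe set (1423227_at) and by 0.38 ± 0.0767 with the other (1420193_at), whose values stayed between 3.52 and 4.61 on all 23 arrays.

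Hard keratins of hair, nail and papilla were higher in tongue in 11 of 12 genes. Krt36, known from the filiform papilla, differed by 7.86 ± 0.0847, Krt34 by 7.72, Krt86 by 6.79 and Krt83 by 2.64. Krt31, Krt33a, Krt33b and Krt34 are close relatives, as are Krt81, Krt83 and Krt86, and cross-hybridization within each set cannot be told from their own signal. Krt82, a keratin of the hair cuticle, was lower in tongue by 0.34 on the log2 scale (difference -0.34 ± 0.0655), with values between 3.12 and 3.98 on all arrays.

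Keratins of the hair root sheath were mostly flat. Krt79 and Krt75, a keratin of the companion layer, were higher in tongue by 1.48 and 0.52, Krt72 was lower (-0.25), and Krt25, Krt71 and Krt27 did not pass (0.22, 0.08 and -0.03). Their BG tongue means include array 1.

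Among simple epithelium keratins only Krt23 was higher in tongue, by 4.74 ± 0.119. Krt20 differed by -0.22 and was lower in tongue. Krt18 differed by 0.06, Krt7 by 0.01, Krt19 by -0.10 and the 3 Krt8 probe sets by -0.05, 0.07 and 0.04, and these 6 probe sets did not pass. Krt88, which was put in no role group, was higher in tongue by 0.23.

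**Figure D2:**
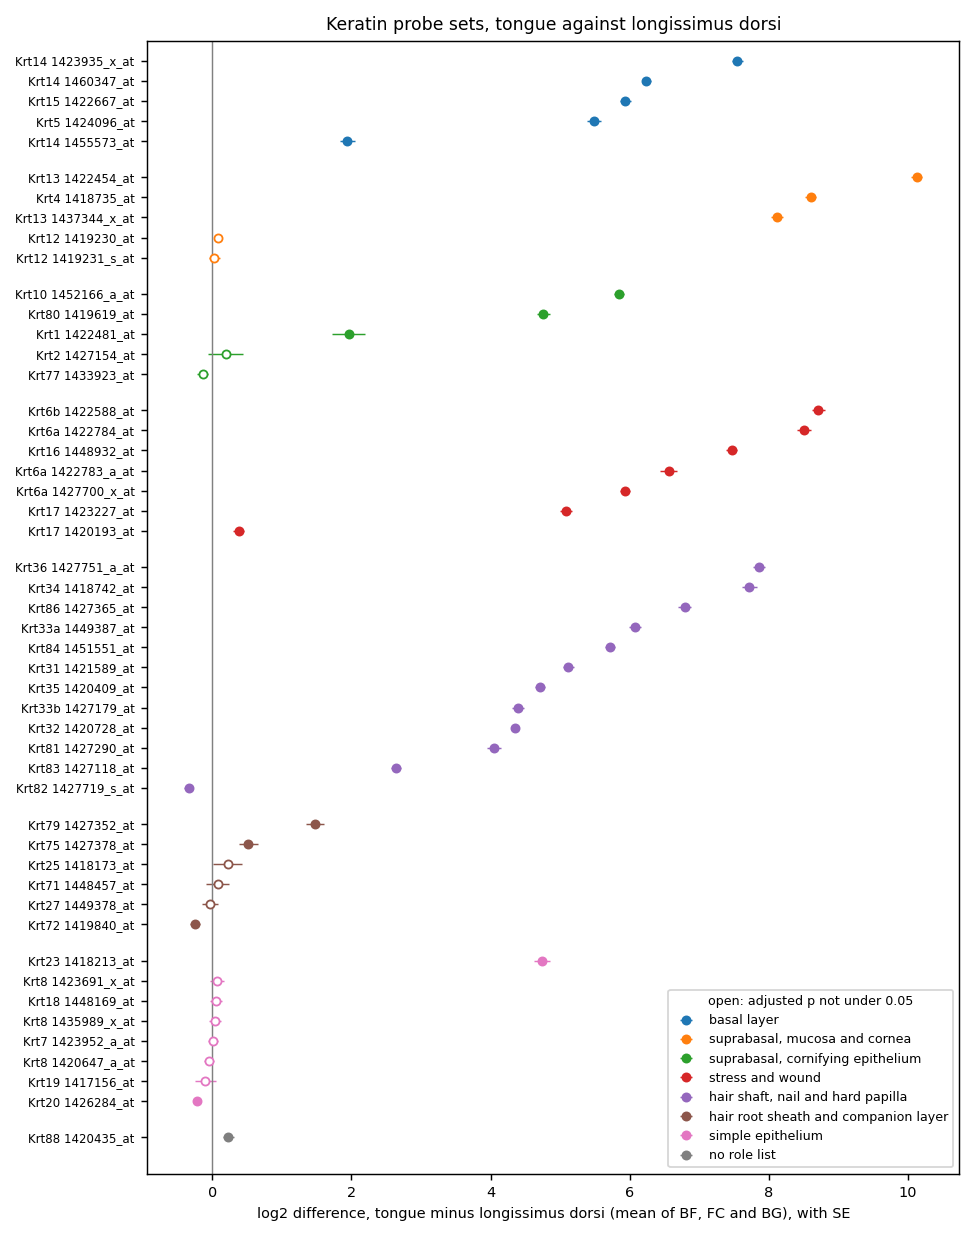
Log2 difference of each of the 49 keratin probe sets, tongue minus longissimus dorsi over the mean of BF, FC and BG (x axis, with the limma standard error as bar), grouped by role (colour). Filled points passed the test and open points did not: the differences run from -0.34 for Krt82 to 10.13 for Krt13.

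Tongue, BF against BG: this comparison asks what flight changed beyond the habitat. A single keratin probe set passed, Krt17 (1423227_at), and it was lower in BF, where 0.473% of all probe sets were lower and 0.354% higher. It read 7.55, 7.62 and 7.58 in BF and 8.49, 9.29 and 8.52 in BG tongue, with 7.88 and 8.12 in FC tongue. All BF arrays lay below all FC arrays, and these below all BG arrays. In 16 of the 49 keratin probe sets all BF arrays lay below all FC arrays, so that gap is not particular to Krt17. For Krt17 the BF minus FC difference did not pass (smallest limma adjusted p of the stress keratins 0.207). The BF minus BG difference was -1.18 ± 0.159, or 2.27-fold (limma adjusted p = 0.00111) and -1.32 without BG array 1 (adjusted p = 0.00287). With arrays weighted by their fit, 9 keratin probe sets passed, 2 higher and 7 lower: those added were Krt81 and Krt86 (higher) and Krt1, Krt2, Krt16, Krt27, Krt32 and Krt71 (lower). The study had listed Krt17 from these same arrays, so its choice is not independent of this value. The other Krt17 probe set read 3.91, 3.83 and 3.93 in BF and 4.36, 4.23 and 4.06 in BG, a difference of -0.33 ± 0.141 that did not pass (adjusted p = 0.27).

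KRT16 and KRT6 are the usual companions of KRT17. Krt16 read 11.92, 11.77 and 11.91 in BF and 12.23, 12.72 and 12.37 in BG tongue, again without overlap, and missed the threshold (-0.57 ± 0.146, limma adjusted p = 0.0622). It lay close to the threshold and passed without longissimus dorsi BG array 1 or 5 (limma adjusted p = 0.047 and 0.0462). Krt6b read 13.46, 13.98 and 13.54 in BF and 13.97, 14.28 and 14.01 in BG (-0.43 ± 0.172, adjusted p = 0.229), with 1 BF array inside the BG range. The Krt6a probe sets differed by -0.01, -0.17 and 0.01. In all, 6 of the 7 stress probe sets had a negative difference, and in 4 every BF array lay below every BG array, which held for 8.84% of all probe sets. The 7 probe sets are of 4 genes. Those without overlap include both of Krt17, so the counts are not independent of its call. The median over the 7 was -0.325, against 0.0185 over all probe sets.

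Markers of proliferating cells were also lower in BF than in BG tongue. Of their 30 probe sets 13 were lower and 0 higher, with a median of -0.803, where 0.473% of all probe sets were lower and 0.354% higher. Their mean per array was 5.19, 5.59 and 5.19 in BF, 5.60 and 5.56 in FC, and 6.30, 6.31 and 5.72 in BG. In both this mean and Krt17 (1423227_at) every BF array lay below every BG array, and BG array 2 was highest, at 6.31 and 9.29. BG arrays 1 and 3, with means of 6.30 and 5.72, read 8.49 and 8.52 in Krt17. The mean of the epithelium markers lay between 8.40 and 8.63 in BF, 8.37 and 8.55 in FC, and 8.53 and 8.72 in BG, with overlap. The part of either in the Krt17 result was not tested, and in such bulk samples fewer cells of a type and less RNA per cell cannot be told apart.

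**Figure D3:**
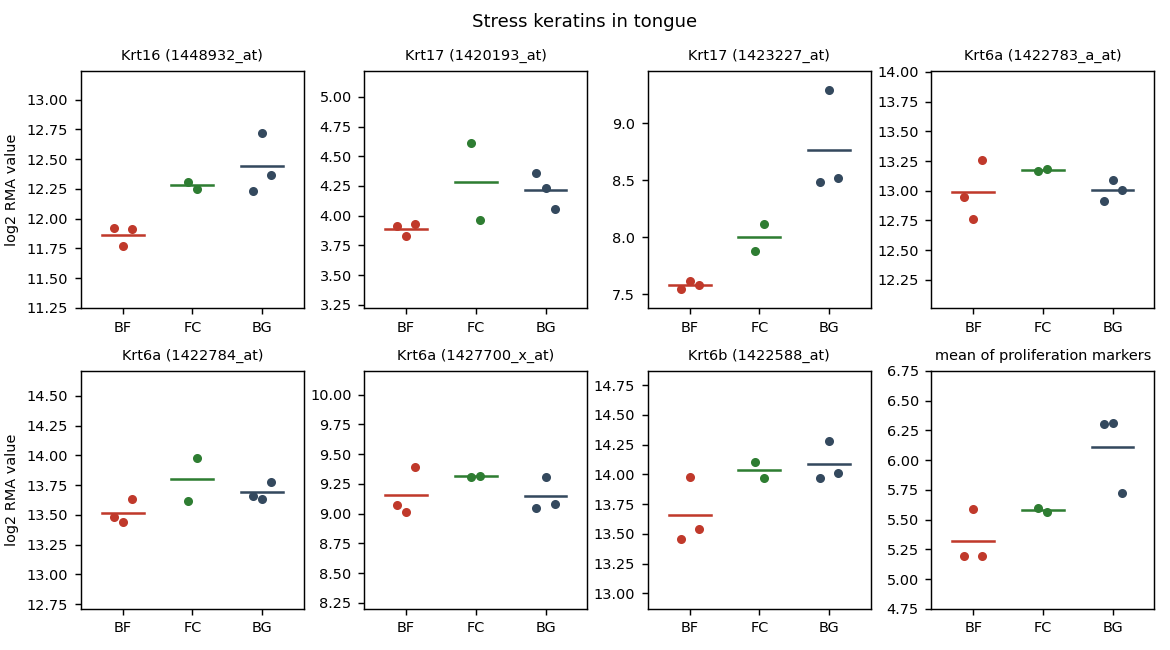
Log2 RMA values of the 7 stress keratin probe sets and the mean of the 30 probe sets of proliferation markers in tongue (x axis: BF, FC and BG; y axis: log2 RMA value, with its own range in each panel; points: arrays; lines: group means). In Krt17 (1423227_at) the BF arrays lie between 7.55 and 7.62 and the BG arrays between 8.49 and 9.29.

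No keratin of another role passed between BF and BG tongue. The basal keratins differed by -0.28 to 0.33, and Krt5 read 11.48, 10.86 and 11.79 in BF against 11.10, 11.03 and 11.22 in BG. The hard keratins differed by -0.30 to 0.51, with Krt86 at 0.51 ± 0.164 (adjusted p = 0.129) and Krt81 at 0.50 ± 0.196 (adjusted p = 0.218). The mucosal keratins differed by -0.42 to 0.18 and those of simple epithelium by -0.43 to 0.15. All 6 root sheath probe sets had negative differences (-0.88 to -0.17), as did Krt1 (-1.46) and Krt2 (-1.12). Without BG array 1 the values were -0.50 for Krt1, -0.08 for Krt2, -0.22 for Krt71, 0.12 for Krt25, -0.02 for Krt27 and -0.09 for Krt79, with adjusted p between 0.364 and 0.974. Krt1 passed without BG array 2 (-2.13, limma adjusted p = 0.0382), Krt71 without BG array 3 (-1.24, 0.0362) and Krt32 without BF array 2 (-0.39, 0.0439). Of these, Krt1 and Krt71 stood apart on BG array 1.

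Tongue, FC against BG: this comparison sets the ordinary facility against the flight habitat, both on the ground. Of the keratin probe sets 8 were higher and 2 lower in FC, where 5.13% of all probe sets were higher and 4.33% lower. Of these 10, 7 were hard keratins, of which 6 were higher and 1 was lower. The median over the 12 hard keratins was 0.524, against 0.0191 over all probe sets.

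Krt31, a keratin of the hair cortex, read 11.10 and 11.02 in FC and 10.07, 10.02 and 10.43 in BG tongue, with 10.44, 10.44 and 10.78 in BF. FC exceeded BG by 0.89 ± 0.16 (limma adjusted p = 0.00203). Krt86, a type II hard keratin, read 11.55 and 11.54 in FC and 10.52, 10.70 and 10.66 in BG, a difference of 0.92 ± 0.183 (adjusted p = 0.00405). Neither gene had overlapping groups, and for both the 3 BF arrays lay between the FC and BG arrays.

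Krt81, which differed by 0.93 ± 0.219 (adjusted p = 0.0113), read 11.65 and 11.68 in FC, 10.44, 11 and 10.76 in BG, and 10.98, 10.99 and 11.72 in BF. Krt84, known from the tongue papillae, read 11.62 and 11.66 in FC and 11.07, 10.86 and 10.97 in BG, a difference of 0.67 ± 0.154 (adjusted p = 0.0101). These groups did not overlap either, and BF array 3 reached the FC values in Krt81. Krt83 differed by 0.64 ± 0.151 (adjusted p = 0.0111), reading 9.91 and 9.77 in FC against 9.11, 9.11 and 9.37 in BG. Krt34 differed by 0.75 ± 0.224 (adjusted p = 0.0379), reading 12.40 and 12.57 in FC against 11.85, 11.62 and 11.76 in BG.

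Krt32, a cuticle keratin, ran the other way. It read 10.11 and 10.09 in FC and 10.53, 10.45 and 10.54 in BG tongue (-0.41 ± 0.121, limma adjusted p = 0.0368), and 10.01, 10.44 and 10.21 in BF. The remaining hard keratins, Krt33a, Krt33b, Krt35, Krt36 and Krt82, differed by -0.07 to 0.40 and did not pass. In 7 of the 12 genes both FC arrays lay above all BG arrays, which held for 24.4% of all probe sets. By group mean, 7 of the 12 followed the order FC, BF, BG from high to low, 3 the order FC, BG, BF, and 1 each BF, BG, FC and BG, BF, FC.

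**Figure D4:**
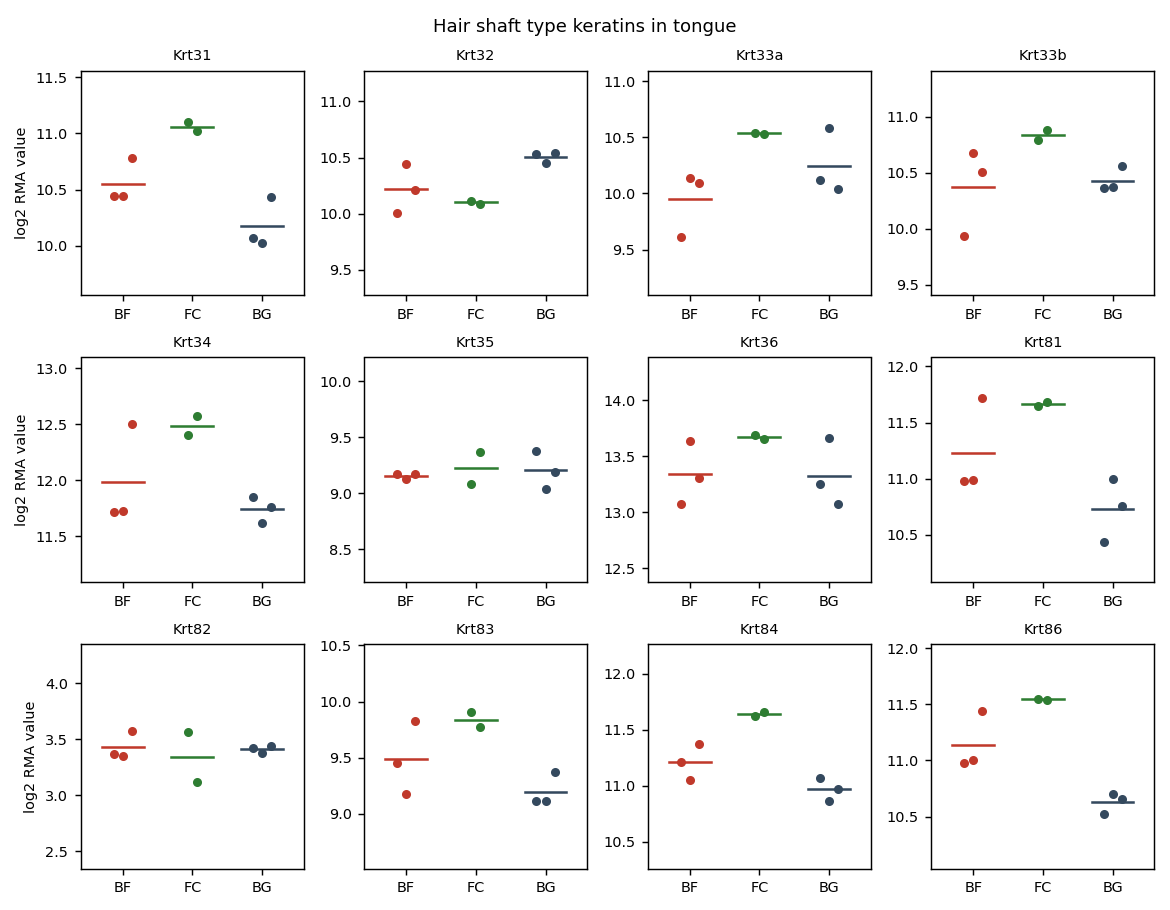
Log2 RMA values of the 12 hard keratins in tongue (x axis: BF, FC and BG; y axis: log2 RMA value, with its own range in each panel; points: arrays; lines: group means). In Krt31, Krt34, Krt81, Krt83, Krt84 and Krt86 both FC arrays lie above all BG arrays, and in Krt32 both lie below them.

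Beside the hard keratins, 3 keratins passed between FC and BG tongue. Krt10 read 13.09 and 12.94 in FC and 12.60, 12.51 and 12.44 in BG (0.50 ± 0.145, limma adjusted p = 0.0324). Krt80, found in differentiating epithelial cells, read 11.61 and 11.25 in FC and 10.67, 10.74 and 10.70 in BG (0.72 ± 0.184, adjusted p = 0.0169). Krt17 (1423227_at) was lower in FC (-0.77 ± 0.178, adjusted p = 0.0102), and its other probe set did not pass (0.07, adjusted p = 0.874). BF and FC thus each had lower Krt17 signal than the BG arrays, which both comparisons share.

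These calls rest on 2 FC arrays and on a spread pooled with longissimus dorsi. With tongue fitted alone 6 keratin probe sets passed, and Krt34, Krt32, Krt83 and Krt10 missed the threshold (limma adjusted p 0.051 to 0.0977). Without FC array 1 the count of keratins was 0, and without FC array 2 it was 5; without BG array 1 it was 7. Without BG array 2 it was 5, of which Krt31, Krt81 and Krt86 were among the 10 and Krt1 (-2.05) and Krt2 (-1.98), which stood apart on BG array 1, were not. With array weights it was 18, 11 higher and 7 lower. The 10 named differences kept their direction each time. Krt31 and Krt86 missed the threshold only without FC array 1 (adjusted p = 0.0674 and 0.0809), and Krt17 (1423227_at), Krt80 and Krt83 without it (0.184, 0.283 and 0.174) or without BG array 2 (0.055, 0.0529 and 0.0537). Krt84 missed it without either FC array or BG array 2 (0.0521 to 0.111), Krt81 without either FC array or BG array 1 (0.0501 to 0.122), Krt10 without either FC array, BG array 2 or BG array 3 (0.0741 to 0.305), and Krt34 and Krt32 without any 1 of the 5 arrays (0.0605 to 0.222 and 0.0735 to 0.219). None of the basal, mucosal, root sheath or simple epithelium keratins passed. Krt1 and Krt2 had differences of -1.38 and -1.39, which stood at -0.42 and -0.35 without BG array 1. Krt25, Krt71, Krt27 and Krt79 had differences of -0.90, -0.77, -0.56 and -0.36, which stood at -0.03, -0.11, -0.11 and 0.05 without it.

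The 29 probe sets of epithelium markers gave 0 higher and 4 lower in FC than in BG tongue (Epcam, Spint2, Ly6d and Dsp), and the 25 of muscle fibres 5 higher and 0 lower. Of the 30 of proliferating cells 0 were higher and 5 lower, with the array means given above, which did not overlap. The 20 of endothelium, fibroblasts and leukocytes had 1 higher and 0 lower, and their mean was 8.06 and 7.93 in FC and 7.71, 7.78 and 7.70 in BG, also without overlap. Over all probe sets 5.13% were higher and 4.33% lower in FC than in BG tongue, so the 1 of 20 is near that share. The part of the marker lists in the keratin results was not tested.

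Some genes of proteins that work with keratins passed in the same comparison, where 5.13% of all probe sets were higher and 4.33% lower. Of 22 probe sets of cornified cell and hair proteins 3 were higher in FC than in BG tongue: Krtap3-1, a matrix protein of hair (0.99), Flg, which bundles keratin filaments (0.84), and Lor, a cornified envelope protein (0.46). Krtap3-1 was also higher in BF than in BG (0.81, limma adjusted p = 0.0149). Of 35 probe sets of desmosome and hemidesmosome linkers 6 were higher and 2 lower. Among the higher were Plec, which ties filaments to the membrane (1.53 and 1.87), Itgb4 (1.15) and Evpl (0.96). Dsp, a desmosome gene named above, was lower. In BF against BG tongue, where 0.354% of all probe sets were higher, 2 of these 35 were, Itgb4 (0.74) and Plec (0.87), and 0 were lower, and Plec is also made by muscle fibres. Of 30 probe sets of regulators 3 were higher, Klf5 (1.22), Gli2 (0.90) and Tfap2a (0.59), and 0 lower.

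Tongue, BF against FC: this pair differs in gravity and habitat together. Krt10 alone passed, lower in BF, where 1.08% of all probe sets were lower and 1.16% higher. It read 12.19, 12.60 and 12.49 in BF and 13.09 and 12.94 in FC tongue (-0.59 ± 0.145, limma adjusted p = 0.0305). All BF arrays thus lay below all FC arrays, as they did in 16 of the 49 keratin probe sets, Krt10 included. The call was lost without BF array 1 (adjusted p = 0.115), BF array 3 (0.0584), FC array 1 (0.388) or FC array 2 (0.111). Among the hard keratins 10 of 12 had negative differences, with a median of -0.416 against -0.00834 over all probe sets, and the smallest adjusted p was 0.0818 for Krt33a (-0.59). All 7 stress probe sets were negative too, between -0.41 and -0.16. Of the regulators 3 probe sets were lower in BF and 0 higher: Klf5 (-1.02), Tfap2c (-0.89) and Kdf1, a keratinocyte differentiation factor (-1.08). Kdf1 was also lower in BF than in BG tongue (-1.14, adjusted p = 0.0184), a gene the study lists from these arrays as well.

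Longissimus dorsi: the housings were compared at these low keratin values. Between BF and BG 3 probe sets passed, all lower in BF, where 3.83% of all probe sets were lower and 6.41% higher. They are 6.12% of the keratin probe sets, so the count is no result about keratins as a group. Krt10 read 6.46, 6.63, 6.51, 6.47 and 6.52 in BF and 7.07, 6.93, 6.85, 7.18 and 6.90 in BG, without overlap (-0.47 ± 0.1, limma adjusted p = 0.00481). The call held without each array in turn, with differences from -0.51 to -0.42.

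Krt6a (1422784_at) read 5.25, 4.71, 4.90, 4.53 and 5.23 in BF and 5.58, 5.29, 5.58, 5.58 and 4.99 in BG (-0.48 ± 0.145, adjusted p = 0.0366), and its other probe sets differed by -0.24 and -0.13 and did not pass. Krt6b read 5.03, 4.75, 4.85, 5.04 and 5.08 in BF and 5.40, 5.15, 5.63, 5.61 and 5.11 in BG (-0.43 ± 0.133, adjusted p = 0.042). The Krt6a groups overlapped and the Krt6b groups did not, with 5.08 in BF next to 5.11 in BG. The Krt6a call was lost without BF array 2, 3 or 4 or BG array 1, 2, 3 or 4 (adjusted p 0.0504 to 0.113), and the Krt6b call without any BF array, BG array 1, 3 or 4, or either FC tongue array (0.0504 to 0.109). The epithelium markers had a mean between 4.59 and 4.73 in BF and between 4.57 and 4.77 in BG, with 1 of 29 probe sets higher (Trp63) and 1 lower (Cldn1). The proliferation markers had a mean between 4.40 and 4.52 in BF and between 4.54 and 4.71 in BG, without overlap, with 0 of 30 probe sets higher and 2 lower. The means of both lists lie below the array medians of this muscle, 6.42 to 6.54. Without detection calls signal and background cannot be told apart at such values. Over all probe sets 6.41% were higher and 3.83% lower in BF than in BG longissimus dorsi. The part of both marker lists in the keratin results was not tested.

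In all, 43 of the 49 keratin differences between BF and BG longissimus dorsi were negative, with a median of -0.118 against -0.0276 over all probe sets. Each of the 7 role groups had a negative median, from -0.151 for the mucosal keratins to -0.0229 for the root sheath. Beside the 3 named, 0 of these differences passed the test. The share of negative signs over all probe sets is not given here. Medians of the other gene lists ran from -0.181 (endothelium, fibroblasts and leukocytes) to 0.0603 (muscle fibres). Among them were proliferation markers at -0.116 and salivary gland and taste bud markers at -0.103, so such a median was not particular to keratins. Of the FC minus BG differences in this muscle 39 of the 49 were negative too, with a median of -0.078 against -0.0102 over all probe sets. Of the BF minus FC differences 29 were negative, with a median of -0.0151 against -0.0259. Most signs were thus also negative in the comparison without flight, which uses the same BG arrays.

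Between FC and BG longissimus dorsi 2 keratins passed, both lower in FC, where 2.16% of all probe sets were lower and 6.79% higher. They are 4.08% of the keratin probe sets, so this count too is no result about the group. Krt32 read 5.60, 5.87, 5.77, 5.77 and 5.83 in FC and 6, 6.17, 5.93, 6.25 and 6.03 in BG, without overlap (-0.31 ± 0.0839, limma adjusted p = 0.026). Krt80 read 6.44, 5.70, 5.94, 6.07 and 5.89 in FC and 6.63, 6.46, 6.23, 6.19 and 6.66 in BG, where FC array 1 lay inside the BG range (-0.43 ± 0.128, adjusted p = 0.04). Between BF and FC 2 were lower in BF, where 1.6% of all probe sets were lower and 2.06% higher. These 2 are again 4.08% of the keratin probe sets, too few for a result about the group. Krt13 (1422454_at) read 3.41, 3.52, 3.24, 3.59 and 3.22 in BF and 3.59, 3.95, 4.35, 3.86 and 3.82 in FC (-0.52 ± 0.114, adjusted p = 0.0113), the groups meeting at 3.59, while its other probe set stood at 0.00. Krt10 read 6.71, 6.67, 7.16, 6.99 and 7.01 in FC (BF minus FC -0.39 ± 0.1, adjusted p = 0.0286). Krt32 missed the threshold without FC array 1 or 3 or BG array 2 or 4 (adjusted p 0.0562 to 0.079), Krt80 without FC array 2, 3 or 5 or BG array 1, 2 or 5 (0.0596 to 0.118), and Krt10 without BF array 1, 3, 4 or 5 or FC array 3, 4 or 5 (0.0565 to 0.0991). Krt13 kept its call without each array in turn.

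**Figure D5:**
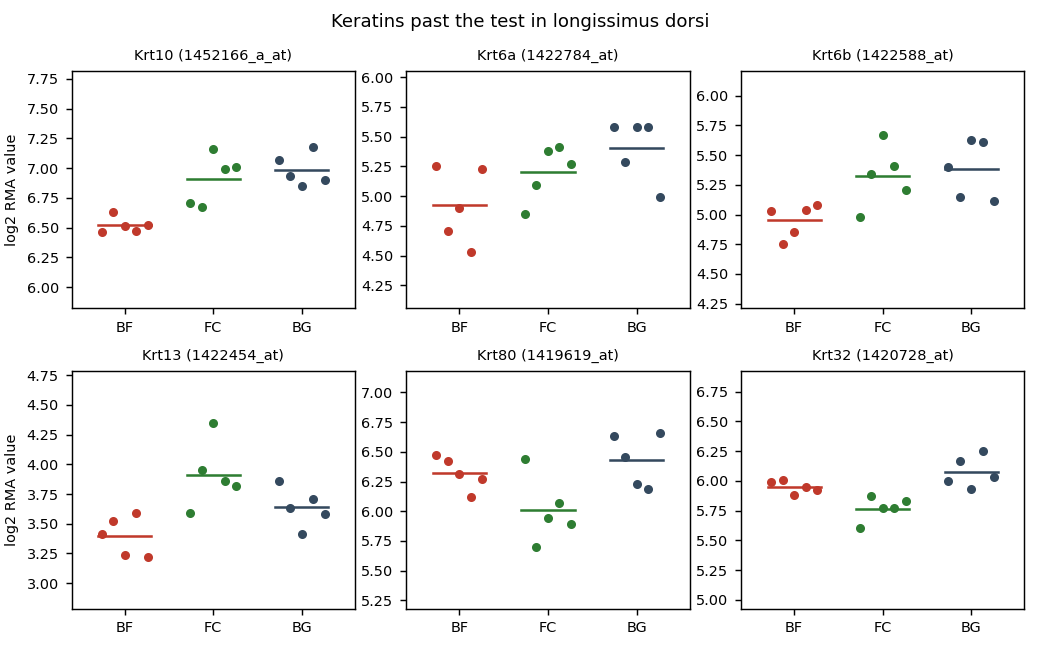
Log2 RMA values of the 6 keratin probe sets that passed a housing comparison in longissimus dorsi (x axis: BF, FC and BG; y axis: log2 RMA value, with its own range in each panel; points: the 5 arrays of each group; lines: group means). The BF arrays of Krt10 lie between 6.46 and 6.63, below all FC and BG arrays.

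The muscles were also set against each other in their response. The BF minus BG difference of Krt17 (1423227_at) was -1.18 in tongue and -0.09 in longissimus dorsi, and the 2 differed by -1.10 ± 0.202 (limma adjusted p = 0.0287). In longissimus dorsi the probe set read between 2.73 and 3.21, where the lowest value of the whole table was 2.24, so a lower level could hardly have been seen there and the test adds little to the tongue result. It was the only keratin to pass that test, which 0.172% of all probe sets passed, and it missed it without tongue BG array 1 (-1.24, adjusted p = 0.0698), BF array 1 (0.0628) or BF array 3 (0.0921), or without longissimus dorsi BF array 4 (0.0642), BG array 1 (0.0522) or BG array 3 (0.0605). The same test of FC minus BG was added after the values were seen, since Krt80 had passed with opposite signs in the 2 muscles, and for Krt80 it is a description of that pattern and no further evidence. Krt80 (0.72 in tongue, -0.43 in longissimus dorsi, difference 1.15 ± 0.224, adjusted p = 0.0236) and Krt86 (0.92 and -0.11, difference 1.03 ± 0.223, adjusted p = 0.0453), whose longissimus dorsi values lay between 4.02 and 4.80, passed it, as did 0.301% of all probe sets, and 0 keratins passed without tongue FC array 1, BG array 1 or BG array 2. Krt86 was lost without 17 of the 23 arrays, taken 1 at a time.

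The other intermediate filament genes gave a comparison within the cell skeleton. Of their 32 probe sets (Des, Vim, Nes, lamins and others), 10 were higher and 15 lower in tongue than in longissimus dorsi, with a median of -0.127, near the 24.5% and 45.3% of all probe sets. Between housings 0 to 3 of the 32 passed, where the share of all probe sets higher ran up to 6.79%, so these counts are no result about the group. By value, Nes, the nestin of regenerating muscle and vessels, was higher in FC than in BG tongue (0.76 and 0.41 with 2 probe sets) and in both BF and FC longissimus dorsi than in BG (0.26 and 0.27 with 1453997_a_at), and Lmnb2, a lamin, was higher in FC than in BG tongue (0.42) and lower in BF than in FC longissimus dorsi (-0.32).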

How the data were processed

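The members and all gene lists were chosen with earlier results of these data known. RNA was hybridised to Affymetrix mouse expression arrays, and the deposited table holds log2 values that the authors made with the RMA method in Partek, as the methods of the study and the submitters' processing notes say; these cover background correction, quantile normalization and probe summary. Genes were named from the platform annotation (20380 probe sets name 1 gene, 691 several, 1555 none), and chromosomes and promoters from RefSeq tables of GRCm38.p6. A model of 6 group means was fitted with limma 3.58.1 in R 4.3.3 (17 residual and 5.12 prior degrees of freedom, no filter on low values), after it was tested on simulated data. Described in full were probe sets that passed a housing comparison, the highest tongue value and the largest muscle differences of each role, and the smallest p of each comparison. Their number, not depth, limits the precision of arrays. The authors' comparisons were not used. Alternatives were other moderation, normalization, filters, weights, blocks and each array left out.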

Additional observations from a re-analysis of the deposited data

Results flagged for a closer look

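In longissimus dorsi, 4 of the 147 combinations of keratin probe set and group held an array far from the other 4, and chance alone flags about 1 in 20 groups. These were Krt34 at 3.94 on FC array 2 (next 4.38), Krt81 at 7.53 on BG array 1 (next 7.21), Krt86 at 4.80 on BG array 4 (next 4.39) and Krt75 at 5.25 on BG array 4 (next 4.72). The tongue groups are too small for this check.

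The housing difference in tongue minus that in longissimus dorsi passed the test for 3 keratin probe sets in limma. For BF minus BG it was Krt17 (1423227_at), with tongue minus longissimus dorsi at -1.10, where the longissimus dorsi values lay between 2.73 and 3.21, near the lowest of the table. For FC minus BG it was Krt80 at 1.15 and Krt86 at 1.03, in a comparison added after the values were seen and prompted by Krt80 itself.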

How the results depend on the processing

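Of 719 values of the 22 named differences under an alternative, 598 kept their side of the threshold, 121 lost it and 0 reversed. The limits lie in the number of arrays, with 2 for FC tongue, and in low values without detection calls in longissimus dorsi. The counts of keratin probe sets past the threshold moved as follows. With array weights, 9 passed for BF vs. BG and 18 for FC vs. BG in tongue, 6 for BF vs. FC in tongue, 6 for BF vs. BG in longissimus dorsi, 3 for the BF vs. BG difference between the muscles and 6 for the FC vs. BG difference. With each muscle fitted alone, 6 passed for FC vs. BG and 0 for BF vs. FC in tongue, and 1 for FC vs. BG in longissimus dorsi. Without moderation, 1 passed for BF vs. BG and 1 for FC vs. BG in longissimus dorsi, and 0 for both differences between the muscles. Among the probe sets above the median level, which leave out Krt17 (1423227_at), 0 passed for BF vs. BG in tongue, 0 for its difference between the muscles, 1 for the FC vs. BG difference, 23 for tongue vs. longissimus dorsi and 22 for the same in BG. With quantile normalization within each muscle, 1 passed for BF vs. BG and 1 for BF vs. FC in longissimus dorsi. Median centring gave 0 and 1 probe set per gene gave 0 for BF vs. FC in tongue, and 1 probe set per gene gave 1 for the FC vs. BG difference.

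Leaving out each array in turn gave, in tongue, 1 to 2 for BF vs. BG, 0 to 10 for FC vs. BG and 0 to 1 for BF vs. FC. In longissimus dorsi it gave 1 to 4, 0 to 2 and 1 to 2 for the same comparisons. It gave 0 to 1 for the BF vs. BG difference and 0 to 4 for the FC vs. BG difference between the muscles, 35 to 37 for tongue vs. longissimus dorsi, and 30 to 32 in BF, 31 to 37 in BG and 30 to 33 in FC. Where a count moved, the cause was not tested.

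Same-numbered arrays of a muscle correlated in their deviations at a mean r of 0.128 (-0.218 to 0.545, 11 of 22 pairs over 0.1), and differently numbered ones at -0.036 (17 of 74 pairs over 0.1). Since no source says what a number shares and not every pair was over 0.1, the arrays were not treated as paired. The number was also used as a fixed block shared by both muscles, and as a random block within each housing. Neither moved a count of keratins by over 1.5 times (1 for BF vs. BG and 9 or 10 for FC vs. BG in tongue). Among single genes only Krt34 for FC vs. BG in tongue lost its call, with the fixed block (0.76, limma adjusted p = 0.0513). The random block joins same-numbered arrays of the 2 muscles, whose deviations correlated at a mean r of 0.0087. It therefore cannot test the correlation within a muscle, and the fixed block assumes 1 number effect in both muscles.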

Other observations

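One further probe set names Krt17 and Krt14 together and was left out of the members. It read 5.22, 5.52 and 5.20 in BF, 5.66 and 5.13 in FC, and 5.35, 5.80 and 5.17 in BG tongue. BF minus BG was -0.12 (limma adjusted p = 0.756), and tongue exceeded longissimus dorsi by 0.31 (adjusted p = 0.00206).

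The keratin associated proteins that stood apart on BG tongue array 1 are matrix proteins of the hair shaft. Krtap8-1 read 8.78 there and at most 5.65 on the other tongue arrays, the 2 probe sets of Krtap16-3 read 7.41 and 5.66 there and at most 3.05 and 3.04 elsewhere, and Krtap19-3 read 6.61 there and at most 3.45 elsewhere.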
